A study of Mus musculus with 4 samples.

Results

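Integrins are cell surface receptors made of 1 alpha and 1 beta chain that bind proteins of the extracellular matrix or other cells and connect them to the actin cytoskeleton. In stratified epithelia α6β4 sits in hemidesmosomes on laminin, while other pairs take part in focal adhesions, migration and the release of active TGF-beta. The 10 genes described here encode chains outside the hemidesmosome: the beta chains Itgb1, Itgb3, Itgb5, Itgb6, Itgb7 and Itgb8 and the alpha chains Itgav, Itga2, Itga5 and Itga9. They were taken by gene symbol from the annotation of the array, and a symbol shared with another gene was not used. A transcript cluster is a group of array probes that gives 1 value per array. Clusters with only the member's own symbol were found for 9 of the 10, 1 cluster each, out of 23332 clusters in all. Itgb8 was not analysed here.

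RNA came from cultures of newborn C57BL/6j mouse bladder: epithelial cells released with collagenase and grown over 3T3 cells, a mouse fibroblast line that serves as a feeder layer. Colonies of p63 knockout pups and of wild-type pups were picked, and 2 samples of each genotype went to 1 Affymetrix Mouse Exon 1.0 ST array each. The labels do not say which part of Trp63, the gene of p63, was disrupted, whether every cell lacked it, or whether the 2 samples of a genotype came from separate animals. The p-values therefore measure the spread between these samples, which may be technical. The transcription factor p63 belongs to the p53 family and marks basal cells, including those of the bladder lining, the urothelium. The arrays thus set bladder epithelial colonies without p63 against colonies with it.

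Values are log2 intensities, so a difference of 1 is a doubling. Trp63 was at 4.60 and 4.74 on the knockout arrays and at 8.98 and 8.99 on the wild-type arrays, in accord with the labels. Over all clusters the correlation was 0.977 between the wild-type arrays and 0.932 between the knockout arrays. Among epithelial markers the simple keratins Krt18 and Krt19 were at 8.60 or more on every array but lower in the knockout, with log2 differences of -0.63 and -1.38 (limma adjusted p = 0.15 and 0.14), and the claudin Cldn4 was at 8.38 and 8.52 against 9.53 and 9.23. The basal keratin Krt5 was at 5.02 and 4.77 in the knockout against 10.43 and 10.60, and the uroplakin Upk1a at 5.07 and 5.41 against 11.51 and 11.73. In limma, 7 of the 16 measured epithelial markers fell and 0 rose at an adjusted p under 0.05, against 0.386% and 0.141% of all clusters. With an unadjusted p under 0.05, 13 were lower and 0 higher, against 7.7% and 14.6% of all clusters. The others, named outside the rule, were Epcam, Ocln and Elf3. Epcam was higher in the knockout, at 8.92 and 8.77 against 8.55 and 8.56, and Ocln and Elf3 overlapped between groups. Itga2 and Itgb6, described next, were lower together with most of these markers, and the part of a lower epithelial share in their differences was not tested. Olfactory receptor genes, taken as silent in bladder, had a median of 3.12 and a 95th percentile of 5.08, which gives a rough level for signal from genes that are off.

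Among the 9 measured integrins 1 gene, Itga2, fell, 0 rose, and the other 8 were not called (limma, with Benjamini-Hochberg adjustment across the 23332 clusters and a threshold of 0.05). Of all clusters 0.527% passed, 0.386% as lower and 0.141% as higher in the knockout. At an unadjusted p under 0.05, Itga2 and Itgb6 were lower and Itgb3 was higher, 3 of 9, against 22.3% of all clusters (7.7% lower and 14.6% higher). The 9 differences ran from -2.79 to 0.56 with a median of 0.19, beside a median of 0.12 over all clusters. After quantile normalization these medians were 0.22 and 0.0029. The knockout arrays lay above both wild-type arrays for 4 of the 9 genes and below them for 2, against 36.2% and 20.9% of all clusters.

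**Figure D1:**
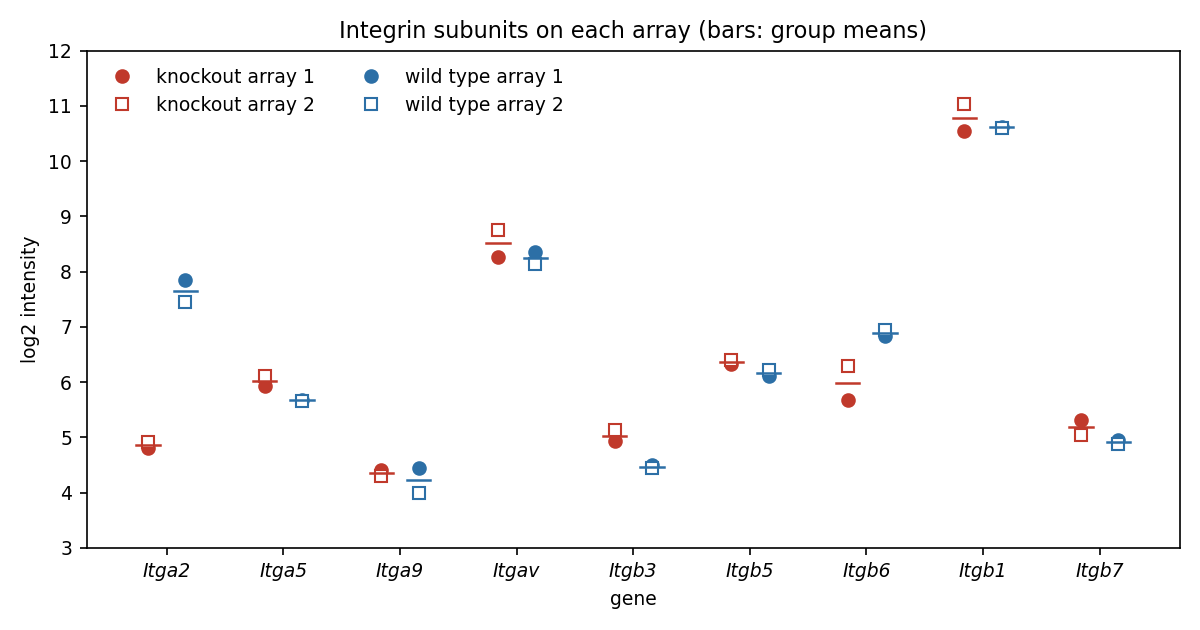
The log2 intensity of each measured integrin on each of the 4 arrays, with red for knockout, blue for wild type, circles for array 1, squares for array 2 and bars for group means (n = 2 per group). Itga2 shows the widest gap between groups, with knockout arrays at 4.80 and 4.92 and wild-type arrays at 7.85 and 7.44.

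Itga2 encodes the α2 chain, which pairs with β1 as a collagen receptor of epithelial cells, fibroblasts and platelets. Its cluster was at 4.80 and 4.92 on the knockout arrays and at 7.85 and 7.44 on the wild-type arrays. Both knockout values lay far below both wild-type values and under the 95th percentile of the olfactory receptors. Itga2 fell 6.90-fold (95% interval 4.59 to 10.4), the log2 means being 4.86 ± 0.09 for knockout and 7.65 ± 0.29 for wild type (± SD, n = 2 each; limma adjusted p = 0.038). Because the knockout level is close to that of silent genes, the fold may be understated. The call ended when 1 array was left out, with an adjusted p of 0.077 without knockout replicate 1, 0.081 without knockout replicate 2, 0.41 when wild type replicate 1 was dropped and 0.37 when wild type replicate 2 was, and log2 differences between -2.99 and -2.58. In each of these fits 0 clusters passed. In bulk RNA, fewer cells that express a gene and less RNA per cell cannot be told apart.

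The 5 genes whose profile over the 4 arrays lay nearest to that of Itga2, by Euclidean distance after centring each cluster on its mean, were Trf, Gstm1, Uchl1, Ccdc3 and Krt13, at distances of 0.13 to 0.31. Trf, which encodes the iron carrier transferrin, was at 4.61 and 4.74 in the knockout against 7.53 and 7.30. Krt13, a keratin of intermediate layers, was at 5.20 and 5.32 against 8.39 and 8.22. With only 4 arrays, this likeness says little beyond a shared difference between genotypes.

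Itgb6 encodes β6, an epithelial chain that pairs only with αv and binds fibronectin, tenascin and the latent form of TGF-beta. It was at 5.68 and 6.29 in the knockout and at 6.84 and 6.94 in the wild type. The groups did not overlap, and the knockout arrays differed from each other more than the wild-type arrays did. The log2 difference was -0.90 (95% interval -1.63 to -0.18) and did not pass the test (limma adjusted p = 0.18). Leaving out knockout replicate 1 gave -0.60, and leaving out knockout replicate 2 gave -1.21.

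The upstream sequences of these 2 lower genes are shown beside that of Itgb1, the shared partner of α2, α5 and α9, as the stretch in which promoter elements would be sought. They are the 250 bases before the start given by RefSeq for GRCm38.p6, 5′ to 3′ on the gene's strand. The array values were made with another build, mm9, and were matched to these sequences by gene, not by position. Capitals mark a GC box.
Itga2, chr13:114932101-114932350, minus strand: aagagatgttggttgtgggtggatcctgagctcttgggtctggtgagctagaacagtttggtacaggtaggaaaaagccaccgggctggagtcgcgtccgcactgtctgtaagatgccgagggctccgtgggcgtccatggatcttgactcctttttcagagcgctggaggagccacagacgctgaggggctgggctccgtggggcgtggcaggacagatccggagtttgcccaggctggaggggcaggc
Itgb6, chr2:60722604-60722853, minus strand: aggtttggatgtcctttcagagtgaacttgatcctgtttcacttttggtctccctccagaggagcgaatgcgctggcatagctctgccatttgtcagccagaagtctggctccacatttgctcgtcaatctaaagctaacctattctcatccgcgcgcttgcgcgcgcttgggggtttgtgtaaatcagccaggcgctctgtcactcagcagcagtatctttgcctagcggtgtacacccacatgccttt
Itgb1, chr8:128685404-128685653, plus strand: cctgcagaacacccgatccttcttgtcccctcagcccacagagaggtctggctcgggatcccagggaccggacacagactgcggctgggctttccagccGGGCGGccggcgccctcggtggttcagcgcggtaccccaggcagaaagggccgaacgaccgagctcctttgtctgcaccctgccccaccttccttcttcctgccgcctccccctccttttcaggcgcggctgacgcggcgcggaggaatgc

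A search of both strands looked for the GC box (GGGCGG), the TATA box (TATAAA), the AP-1 site (TGANTCA) and the decamer bound by the p53 family. The Itga2 and Itgb6 windows held none of these letters, while the Itgb1 window held 1 GC box. Among 32851 promoter windows of the same length, 32.7% held a GC box, 12.4% a TATA box, 6.75% an AP-1 site and 7.13% a p53 family decamer. The GC content was 60.8% for Itga2, 52% for Itgb6 and 68% for Itgb1, against a median of 52.4%. Of the other integrins, Itgb5 had 3 GC boxes and Itga5 had 2. Among these windows a p53 family decamer was found only in that of Itga9, which lies at an internal start of that gene, at the same bases on both strands. A second window listed for Itgb6 held none of the 4 motifs, nor did those of Itgav, Itgb7 and Itgb8. No window of Itgb3 was used. A match is a description of letters, and its absence from this window says nothing of binding elsewhere.

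Itgav encodes αv, the common partner of β1, β3, β5, β6 and β8 in receptors for vitronectin, fibronectin and latent TGF-beta. It was at 8.27 and 8.76 in the knockout and at 8.36 and 8.15 in the wild type, so the groups overlapped. The log2 difference was 0.26 (95% interval -0.40 to 0.92; limma adjusted p = 0.56).

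Among the other beta partners of αv, Itgb5, whose product with αv is a vitronectin receptor, was at 6.33 and 6.39 against 6.11 and 6.22, a difference of 0.19 (95% interval -0.25 to 0.64; limma adjusted p = 0.52). Itgb3, whose product serves endothelial cells, platelets and osteoclasts, was at 4.93 and 5.14 in the knockout and at 4.50 and 4.44 in the wild type. Both knockout values were higher, yet 3 of the 4 arrays were below the olfactory receptor level of 5.08. Its difference of 0.56 (95% interval 0.09 to 1.04) did not pass (limma adjusted p = 0.19).

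Itgb1 encodes β1, the chain shared by the largest group of matrix receptors. It gave 10.54 and 11.03 on the knockout arrays and 10.63 and 10.60 on the wild-type arrays. The knockout arrays lay on either side of the wild-type ones, and the difference was 0.17 (95% interval -0.45 to 0.80; limma adjusted p = 0.68). Without knockout replicate 2 it was -0.069. These arrays would thus allow a change of Itgb1 by up to 0.80 upward or 0.45 downward on the log2 scale.

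Itga5, whose product pairs with β1 as the classical fibronectin receptor, was at 5.93 and 6.10 in the knockout against 5.68 and 5.66. Both knockout values were above both wild-type values, by less than the fit could call (difference 0.35, 95% interval -0.12 to 0.81; limma adjusted p = 0.32). Itga9, whose product pairs with β1 and binds tenascin-C and VCAM-1, was at 4.40 and 4.30 against 4.45 and 4.0, below the olfactory receptor level on every array. Its difference of 0.12 (95% interval -0.49 to 0.74; limma adjusted p = 0.77) was -0.060 after quantile normalization and -0.064 after cyclic loess.

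Itgb7 encodes β7, a chain of lymphocyte homing receptors. It was at 5.31 and 5.05 in the knockout and at 4.95 and 4.88 in the wild type, close to the olfactory receptor level on all arrays (difference 0.26, 95% interval -0.24 to 0.76; limma adjusted p = 0.45). Its alpha partner Itgae was at 4.05 and 4.0 against 3.72 and 3.59. The pan-leukocyte gene Ptprc, named outside the rule, had values of 3.64 and 3.73 against 3.27 and 3.15, also under that level.

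**Figure D2:**
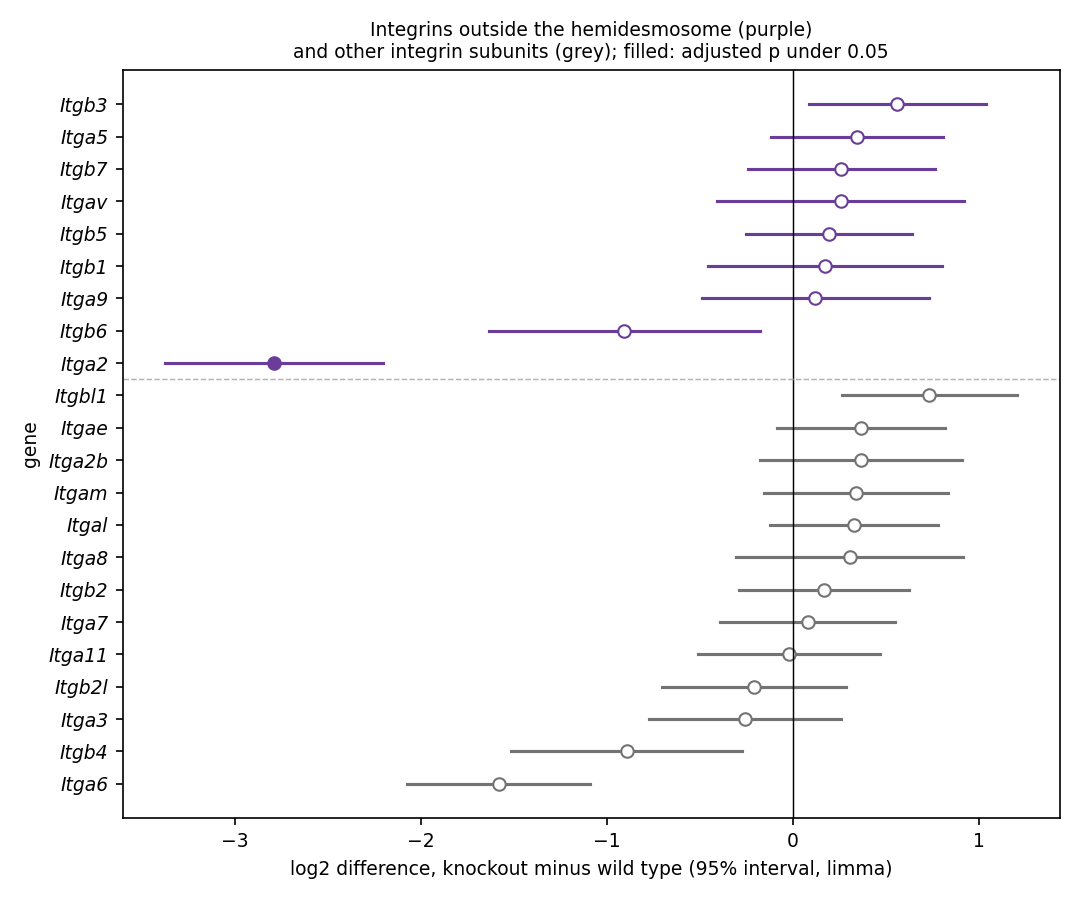
The log2 difference, knockout minus wild type, of each measured integrin outside the hemidesmosome (purple) and of 13 other genes with integrin names (grey), with 95% intervals from limma. The filled point is the 1 gene with an adjusted p under 0.05, Itga2 at -2.79, and the interval of Itgb6 runs from -1.63 to -0.18.

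Of the 13 other measured genes with integrin names, 0 passed the test in limma. At an unadjusted p under 0.05, 1 was higher and 2 were lower, against 14.6% and 7.7% of all clusters. The median difference of the 13 was 0.17, against 0.19 for the 9 described here and 0.12 for all clusters. The chains of the hemidesmosome were both lower: Itga6 was at 7.75 and 7.50 against 9.17 and 9.23 (difference -1.58, limma adjusted p = 0.065), and Itgb4 at 6.31 and 5.84 against 6.93 and 7.0 (-0.89, limma adjusted p = 0.15). Itga6 passed when dim clusters were left out (adjusted p = 0.04 and 0.024 in 2 filters) and with a variance trend (0.041). Itga3, named outside the rule for genes of this list, encodes the α3 chain of a β1 laminin receptor and was at 7.43 and 7.16 against 7.62 and 7.49. Itgbl1, which is related to beta chains but is not one, was at 4.95 and 5.12 against 4.25 and 4.36.

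**Figure D3:**
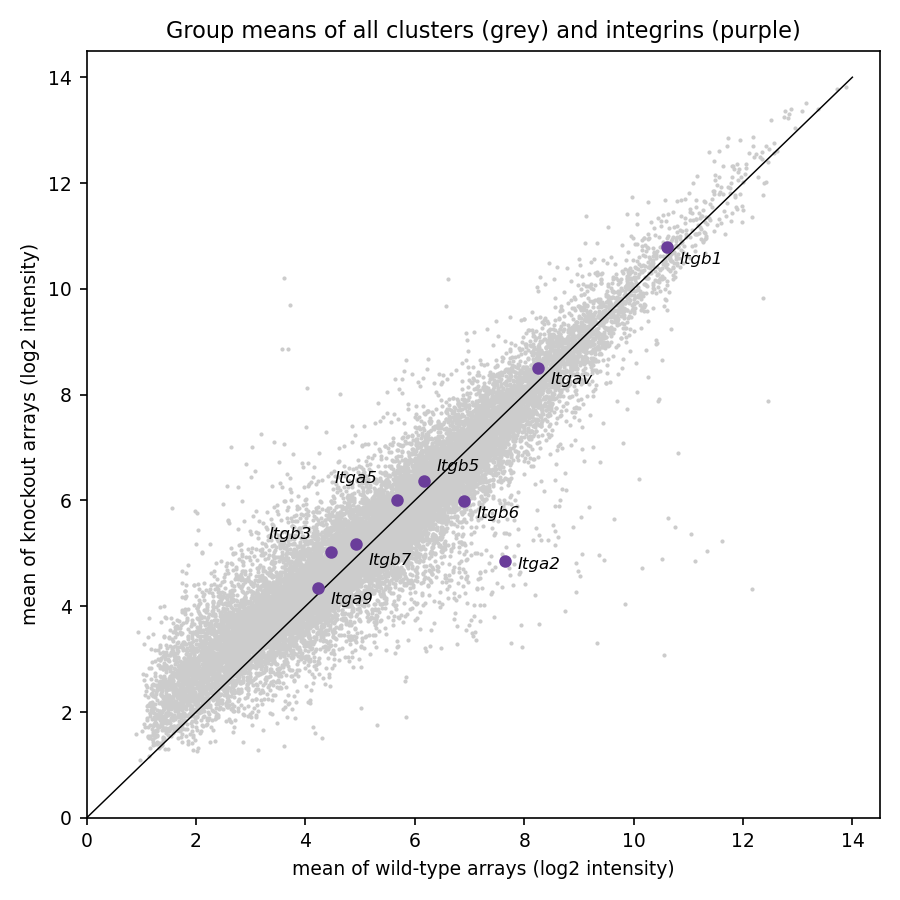
Mean log2 intensity of the knockout arrays against that of the wild-type arrays for all 23332 clusters (grey) and the 9 measured integrins (purple), with the line of equal means. Itga2 lies furthest from the line among the integrins, at 7.65 in the wild type and 4.86 in the knockout.

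The ligands of these receptors gave 0 calls among 31 measured genes in limma, with a median difference of 0.28. At an unadjusted p under 0.05, 6 were higher and 1 was lower, against 14.6% and 7.7% of all clusters. Ccn1, a secreted matrix protein bound by αv and other integrins, was at 8.32 and 8.98 in the knockout against 5.95 and 5.73, a difference of 2.81 (95% interval 2.03 to 3.60; limma adjusted p = 0.058). Ccn2, a relative of Ccn1, was at 7.81 and 8.52 against 6.19 and 6.00 (2.07; limma adjusted p = 0.083). The groups were apart for these 2 genes, named for their small p, and the knockout arrays were the higher ones. In the whole list the groups were apart for 10 genes as higher and 3 as lower, against 36.2% and 20.9% of all clusters.

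Npnt encodes nephronectin, a basement membrane ligand of α8β1, and was at 6.00 and 5.80 against 4.78 and 4.48 (difference 1.27; limma adjusted p = 0.092). Tgfbi, a TGF-beta induced matrix protein, went the other way, at 5.02 and 4.29 against 7.73 and 6.83 (-2.62; limma adjusted p = 0.095). Ccn1 passed when dim clusters were left out and with a variance trend, and Ccn2, Npnt and Tgfbi only when clusters below the median level were left out.

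The best known ligands of the members were named for that reason, outside the rule. Type I collagen, the ligand of α2β1, gave 7.01 and 7.81 against 7.67 and 7.02 for Col1a1 and 7.10 and 7.71 against 7.88 and 7.23 for Col1a2. Fibronectin, Fn1, was at 8.20 and 9.19 against 8.41 and 8.44, and tenascin-C, Tnc, at 6.64 and 7.29 against 7.68 and 6.97. In all 4 of these genes the groups overlapped, and knockout array 2 was above knockout array 1.

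**Figure D4:**
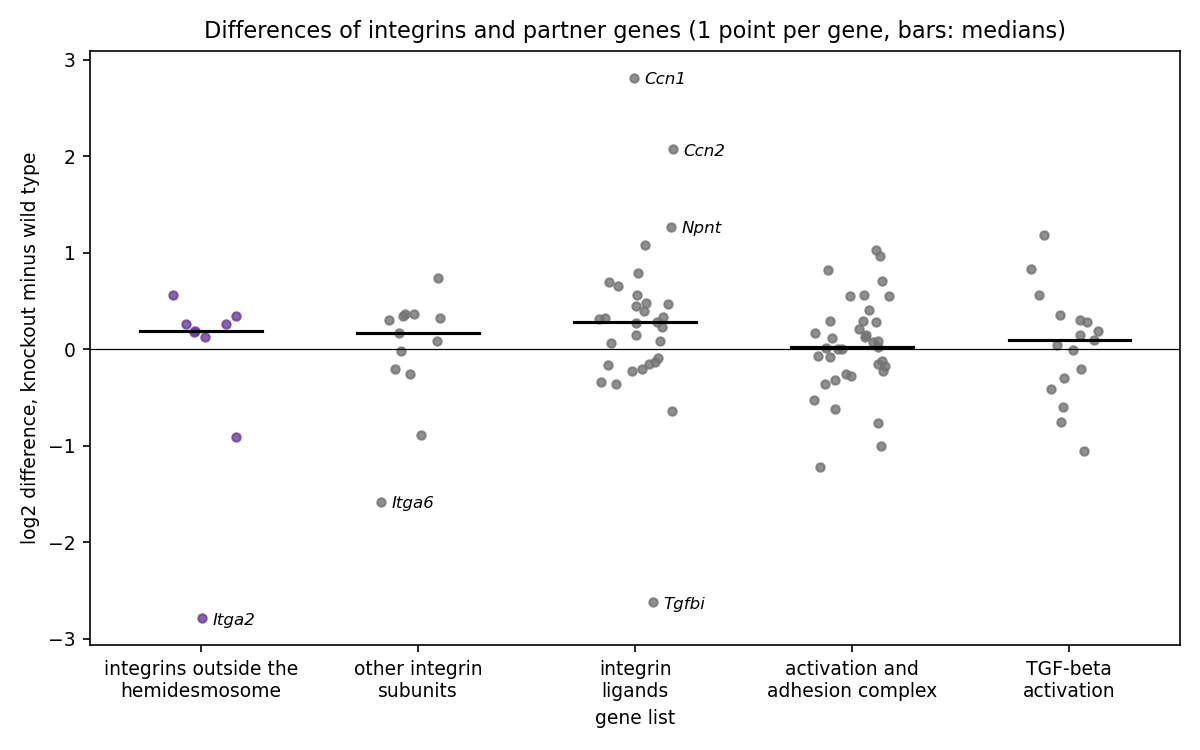
The log2 difference, knockout minus wild type, of every measured gene in 5 lists, with 1 point per gene and bars for list medians. Of all genes shown, Itga2 alone passed the test, while Ccn1 at 2.81 and Tgfbi at -2.62 differed by a similar size and did not.

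Among 37 measured genes of integrin activation and the adhesion complex, 0 passed in limma, and the median difference was 0.02. There were 5 higher and 4 lower at an unadjusted p under 0.05, against 14.6% and 7.7% of all clusters. The actin crosslinker Actn1 was at 7.93 and 8.14 in the knockout against 6.95 and 7.06 (1.03; limma adjusted p = 0.099). Parvb, which encodes β-parvin of the complex with integrin-linked kinase, was at 5.52 and 5.57 against 4.68 and 4.76 (0.82; limma adjusted p = 0.11). Rap1b, a small GTPase that promotes integrin activation, was at 12.01 and 12.24 against 10.99 and 11.32 (0.97; limma adjusted p = 0.12). Sdc1, the epithelial proteoglycan syndecan-1, was lower at 6.66 and 6.12 against 7.72 and 7.49 (-1.21; limma adjusted p = 0.12). The groups were apart for each of these genes, which were named for their small p. In the whole list this held for 14 genes as higher and 11 as lower, against 36.2% and 20.9% of all clusters.

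Receptors αvβ6 and αvβ8 free TGF-beta from its latent complex. Of 17 measured genes of that step and of TGF-beta signalling, 0 passed in limma, and the median difference was 0.09. The unadjusted p was under 0.05 for 2 higher and 2 lower genes, against 14.6% and 7.7% of all clusters. Tgfb3, a ligand, was at 5.23 and 5.46 against 4.30 and 4.03 (1.19), and the signal transducer Smad2 at 7.35 and 7.46 against 8.36 and 8.56 (-1.05; limma adjusted p = 0.096 for both). Tgfb2, another ligand, was at 5.11 and 5.70 against 4.69 and 4.47, and Ltbp4, which encodes a latent TGF-beta binding protein, at 5.28 and 5.18 against 6.09 and 5.87 (limma adjusted p = 0.20 and 0.14). The ligands did not go one way: Tgfb2 and Tgfb3 were higher in the knockout, while Tgfb1, named outside the rule, was lower at 5.07 and 4.82 against 5.82 and 5.26 (-0.60; limma adjusted p = 0.28).

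None of the markers of other cell types passed in limma. Their counts at an unadjusted p under 0.05 stand beside 7.7% of all clusters lower and 14.6% higher, 22.3% in all. Of 12 endothelial markers, 5 were lower and 0 higher at that level. Emcn was at 4.22 and 3.74 against 7.05 and 5.88, Cdh5 at 4.02 and 4.24 against 6.13 and 5.26, and Pecam1 at 4.63 and 4.29 against 6.94 and 5.67. In the whole list 10 differences were below 0 and 2 above. Egfl7 was slightly lower, at 5.65 and 5.41 against 5.72 and 5.68. Eng, at 5.51 and 5.28 against 5.61 and 5.40, had a lower mean but overlapped between groups. Kdr, named outside the rule, was slightly higher in the knockout (difference 0.22). The summed linear intensity of the list was 280 and 255 on the knockout arrays and 609 and 376 on the wild-type arrays. Itga2 was also higher on wild-type array 1, but on the knockout arrays it was higher on array 2, unlike the sum.

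Of 15 leukocyte and platelet markers, 2 were higher and 2 lower at an unadjusted p under 0.05, and 11 lay at or below the olfactory receptor level on all arrays. The platelet gene Pf4 was at 3.16 and 3.60 against 5.15 and 4.53, and the B cell gene Cd79a at 3.32 and 2.65 against 5.01 and 4.22. Itga2b, the platelet integrin chain, was at 5.12 and 4.80 against 4.52 and 4.67, and the macrophage gene Cd68 was higher in the knockout, at 8.58 and 8.12 against 7.68 and 7.26. The sums of this list were 572 to 1976 for knockout and 435 to 550 for wild type, the highest being on knockout array 1, where the platelet chemokine gene Ppbp was at 10.41 against 5.70 to 6.40 on the other arrays. The part of endothelial cells and platelets in the difference of Itga2, which both can carry, was not tested.

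Of 17 fibroblast and feeder markers, 1 was higher and 2 were lower at an unadjusted p under 0.05. Sparc was at 10.95 and 11.73 against 11.14 and 10.73, and S100a4 at 10.02 and 9.33 against 10.18 and 10.95. The 2 lower ones were Dcn, at 8.92 and 9.02 against 10.89 and 9.95, and Lum, at 4.02 and 2.66 against 6.36 and 4.98. The higher one was Vim, named outside the rule, at 9.71 and 10.39 against 9.06 and 9.18. In the whole list 10 differences were above 0 and 7 below, with a median of 0.06. The summed intensity was 5852 to 8026 for knockout and 6801 to 7785 for wild type, and knockout array 2 exceeded knockout array 1 by a median of 0.34. Itgb1, Itgav and Fn1 were higher on knockout array 2 too, and the part of feeder cells in this was not tested. Of 9 smooth muscle markers, 1 was higher and 0 lower at an unadjusted p under 0.05, with sums of 506 to 581 and 320 to 478. Cnn1 was at 6.10 and 5.88 against 4.91 and 4.69 and Acta2 at 7.11 and 7.87 against 6.87 and 5.64, while Mylk (5.43 and 6.32 against 6.40 and 6.20) and Smtn (6.09 and 5.87 against 6.13 and 5.92) overlapped between groups.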

How the data were processed

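Expression was measured on 4 arrays, 1 per sample. The deposited table holds log2 intensities made by the authors for 23332 transcript clusters. Affymetrix Expression Console, Partek and the build mm9 were used per the submitters' processing notes, with versions, summarisation and between-array normalization not given in the sources used here. That the scale is log2 was inferred from their range (0.795 to 13.9). Array medians were 5.08 to 5.13, but lower quartiles were 4.06 on both knockout arrays against 3.80 and 3.82, so quantile normalization and cyclic loess were tried. The number of arrays limits the precision. Probe-level and background values were not used. Genes were named through GEO's annotation of the platform, with 1 symbol for 14996 clusters. Where a gene had several clusters, the one with the highest mean stood for it.

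Knockout and wild type were set against each other in limma 3.58.1 (R 4.3.3; two-sided moderated test from lmFit and eBayes) over all arrays, without covariates or a filter. The fit had 2 residual and 2.2 prior degrees of freedom and was first tried on simulated data. There it recovered 0% of log2 changes of 1, 7.4% of changes of 2, 57.8% of changes of 3 and 73.2% of changes of 4. Changes of 2 or less were thus mostly missed. p-values were adjusted over all clusters. Members and lists (other integrins, ligands, adhesion complex, TGF-beta activation, and markers of epithelium, fibroblasts, endothelium, leukocytes and platelets, and smooth muscle) were chosen with earlier results of these data known. Beside all members, the named genes were up to 4 with the smallest p of each pathway list, the 3 highest and up to 2 with the smallest p of each marker list, and the 5 nearest to the member with the smallest p. Other genes are marked where named. Alternatives were the normalizations, filters on dim clusters, a variance trend, a replicate block, each array left out, and averaging a gene's clusters.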

Additional observations from a re-analysis of the deposited data

How the results depend on the processing

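Alternatives that moved counts or directions are given here. The whole table had 123 calls, against 362 with only clusters at or above the 25th percentile of the mean, 524 with only those at or above the median, 303 with a variance trend, 0 with each array left out in turn (0 to 0) and 0 with the replicate number as a block. The integrins had 1 call, Itga2, and 0 with each array left out (0 to 0) or with the replicate block (limma adjusted p = 0.14 for Itga2). The labels do not say that the replicate number marks a shared litter or day, so the numbers are not taken as pairs. Same-numbered samples did not deviate together over all clusters (correlation 0.019), but 2 samples per group cannot exclude a pairing. Fits with 1 array in a group assume that it varies like the other group. Itga2 passed after quantile normalization (adjusted p = 0.049), cyclic loess (0.048), both filters (0.02 and 0.010), a variance trend (0.027) and averaging (0.039). Of the other lists, each with 0 calls, the 25th percentile filter and the variance trend each gave 1 among other integrins (Itga6) and 1 among ligands (Ccn1). The median filter gave 1 among other integrins, 4 among ligands, 1 in the adhesion complex (Actn1) and 1 in TGF-beta activation (Smad2), and it left 6 of the 9 integrins. Under the filters fewer clusters were tested. The unadjusted limma p of Itga2 was lower too, at 9.5e-05 and 5.9e-05 against 0.000153 in the main fit. The cause of the gain under the filters was not tested. Signs turned for Itga9 after quantile normalization (-0.060), cyclic loess (-0.064) and with 1 array left out (-0.10 to 0.35, lowest without wild type replicate 2), and for Itgb1 with 1 array left out (-0.069 to 0.42, lowest without knockout replicate 2). The median difference of the integrins was 0.19 in the main fit. Over the alternatives it ran from 0.16 without wild type replicate 2 to 0.30 without wild type replicate 1.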
